A study of Homo sapiens with 6 samples.

Results

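CUT&Tag peaks of CTCF and of the cohesin subunit SMC1 were compared within IMR90 cells treated with inflachromene (ICM), a small molecule that binds HMGB proteins. The members were all peaks on chr1-22 and chrX in the 2 lists of ICM-treated cells, 6728 for CTCF and 17809 for SMC1, which made 24537 of the 65597 peaks in the 6 lists of the series. A CTCF and an SMC1 peak were matched when their whole intervals overlapped by at least 1 bp. Matched peaks are called joint, and the rest CTCF-only or SMC1-only. IMR90 are human lung fibroblasts in primary culture, and CUT&Tag uses an antibody to direct a DNA-cutting transposase to the places where its target sits. The ICM libraries both carried the p number 16. The CTCF library was labelled with 6 days of ICM, whereas the SMC1 title gave no number of days. The paper heads the figure that shows both proteins with 6 days of ICM. If the SMC1 library was treated for another time, a difference in time and one between the proteins cannot be told apart. The series also held controls, with p number 21 for CTCF and 16 for SMC1, whose titles read ctrl and do not say whether a vehicle was given. It further held a p34 library per antibody, whose titles name no treatment. The series design describes these p34 samples as senescent cells of high passage. Every group had 1 library, so no value could be set against a spread between replicates. All 95% intervals cover counting over peaks only. Read depth is not known from the lists.

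CTCF is a zinc-finger protein that binds DNA at a directional motif and insulates neighbouring chromatin domains. Cohesin is a ring-shaped complex of SMC1, SMC3, RAD21 and a STAG subunit that is loaded onto chromatin by NIPBL and extrudes loops of DNA. In many cell types extruding cohesin is held at CTCF sites whose motif faces it, while other cohesin lies at active promoters and enhancers where CTCF is absent.

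Promoter windows of genes with the highest-ranking peaks are shown first, to compare the DNA under a joint pair with that under single-protein peaks. The windows are from RefSeq on GRCh38.p14, run from 250 bases before to 50 after a gene's 5′ end and are written 5′ to 3′ along the gene. Capitals mark matches to the CTCF core consensus, a run of 12 bases searched on both strands with at most 1 mismatch. Of the 8 genes picked by rank, RHOF and MTF1 held neither a summit nor a match in the window and are not printed. WDR38 (chr9:124853210-124853509, plus strand), ASB6 (chr9:129642102-129642401, minus strand) and EPHB3 (chr3:184561535-184561834, plus strand) had joint pairs. MAPK8IP3 (chr16:1705945-1706244, plus strand) had a CTCF-only peak, and RAB30 (chr11:83071848-83072147, minus strand) and ICE1 (chr5:5422427-5422726, plus strand) had SMC1-only peaks.
WDR38: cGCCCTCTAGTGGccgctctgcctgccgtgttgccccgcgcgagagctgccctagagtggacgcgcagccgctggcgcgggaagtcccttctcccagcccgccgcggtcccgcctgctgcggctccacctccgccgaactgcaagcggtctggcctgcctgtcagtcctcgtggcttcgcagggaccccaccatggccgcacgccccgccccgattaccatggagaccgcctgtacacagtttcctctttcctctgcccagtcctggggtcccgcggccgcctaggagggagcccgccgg
ASB6: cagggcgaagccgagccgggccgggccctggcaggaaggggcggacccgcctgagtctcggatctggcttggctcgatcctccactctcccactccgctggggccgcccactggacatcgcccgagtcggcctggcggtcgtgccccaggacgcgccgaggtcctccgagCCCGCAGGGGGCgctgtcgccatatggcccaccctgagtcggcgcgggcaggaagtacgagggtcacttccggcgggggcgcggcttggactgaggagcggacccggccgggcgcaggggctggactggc
EPHB3: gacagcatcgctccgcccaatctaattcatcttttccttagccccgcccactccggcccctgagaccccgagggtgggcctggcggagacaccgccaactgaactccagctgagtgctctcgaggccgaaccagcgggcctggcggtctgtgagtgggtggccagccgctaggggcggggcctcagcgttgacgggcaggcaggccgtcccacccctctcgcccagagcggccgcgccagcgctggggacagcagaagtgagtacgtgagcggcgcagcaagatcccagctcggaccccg
MAPK8IP3: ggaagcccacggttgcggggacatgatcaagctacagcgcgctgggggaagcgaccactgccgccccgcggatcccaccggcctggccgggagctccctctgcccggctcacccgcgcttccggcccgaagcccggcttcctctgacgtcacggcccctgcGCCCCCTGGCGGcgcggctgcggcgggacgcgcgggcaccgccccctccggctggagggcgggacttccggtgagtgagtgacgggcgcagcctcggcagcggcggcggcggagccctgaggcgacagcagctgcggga
RAB30: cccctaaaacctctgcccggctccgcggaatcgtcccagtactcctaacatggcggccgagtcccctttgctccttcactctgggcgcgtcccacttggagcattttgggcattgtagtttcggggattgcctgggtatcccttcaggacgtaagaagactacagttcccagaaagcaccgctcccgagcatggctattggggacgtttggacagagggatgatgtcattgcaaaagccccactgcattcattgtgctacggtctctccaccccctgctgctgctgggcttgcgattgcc
ICE1: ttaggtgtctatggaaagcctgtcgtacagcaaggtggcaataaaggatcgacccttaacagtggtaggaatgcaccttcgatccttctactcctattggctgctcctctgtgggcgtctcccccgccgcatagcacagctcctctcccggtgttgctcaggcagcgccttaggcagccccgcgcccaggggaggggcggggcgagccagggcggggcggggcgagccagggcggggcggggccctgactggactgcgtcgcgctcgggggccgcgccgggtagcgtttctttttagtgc
The WDR38 window held an exact match from base 2, while its CTCF and SMC1 summits lay 426 and 434 bp from the 5′ end and so before the window. In ASB6 the match began at base 171 of the window, downstream of both summits, which fell at bases 84.5 and 72.5. The MAPK8IP3 match began at base 162 and its CTCF summit lay 325 bp from the 5′ end, outside the window. No match was found in the EPHB3, RAB30 and ICE1 windows, where the SMC1 summits fell at bases 5.5, 261 and 133.5.

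Most CTCF peaks of ICM-treated cells overlapped an SMC1 peak, but most SMC1 peaks lay apart from CTCF. Of the CTCF peaks, 4883 (72.6%, 95% interval 71.5 to 73.6) were joint and 1845 were CTCF-only. Of the SMC1 peaks, 5386 (30.2%, 29.6 to 30.9) were joint and 12423 were SMC1-only. Joint CTCF peaks held 1 SMC1 peak in 4435 cases, 2 in 401, 3 in 39 and 4 in 8, and no SMC1 peak touched more than 1 CTCF peak. In 4891 pairs (90.8%) the SMC1 peak lay wholly inside the CTCF peak, and SMC1 peaks covered a median of 48.3% of a joint CTCF peak. The widths differed accordingly, with medians of 2011 bp for joint CTCF, 1839 bp for CTCF-only, 875 bp for joint SMC1 and 713 bp for SMC1-only peaks. The joint share depended on how matches were counted. It was 46.6% of CTCF and 17.6% of SMC1 peaks when 100 bp windows around the summits had to overlap, and 44.8% and 46.5% when the SMC1 list was cut to the length of the CTCF list.

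The summits of joint pairs lay close together, and closer away from promoters than at them. The summit was the midpoint of the region of highest signal. Each of the 4883 joint CTCF peaks was paired with the overlapping SMC1 peak whose summit was nearest. The median offset was 64 bp (61 to 67), with quartiles of 18.5 and 147 bp. It was within 100 bp in 64.5% of pairs and over 1 kb in 143. Promoter peaks were those with a summit no more than 1 kb from an annotated 5′ end, and all others were called distal. Distal pairs (n = 2766) had a median offset of 45 bp (42.5 to 48.5) and promoter pairs (n = 2034) one of 88 bp (81.5 to 93), and these intervals did not overlap. The offset fell from 112 bp (100 to 123) in the lowest quintile of highest CTCF signal to 46 bp (41 to 50) in quintile 4, and was 57 bp (52 to 65) in the top quintile. On reference coordinates the SMC1 summit was at the higher coordinate in 2307 pairs, at the lower in 2328 and at the same base in 248. These coordinates take no account of the strand of a motif, so the split cannot show whether either protein led. Along the gene, the median position relative to the 5′ end, negative before it, was -46.8 bp for CTCF summits of promoter pairs and -83.8 bp for SMC1 summits, but the paired difference had a median of 0 bp. Summits were less exact where the region of highest signal was long, which exceeded 100 bp in 4.09% of CTCF and 7.03% of SMC1 peaks.

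**Figure D1:**
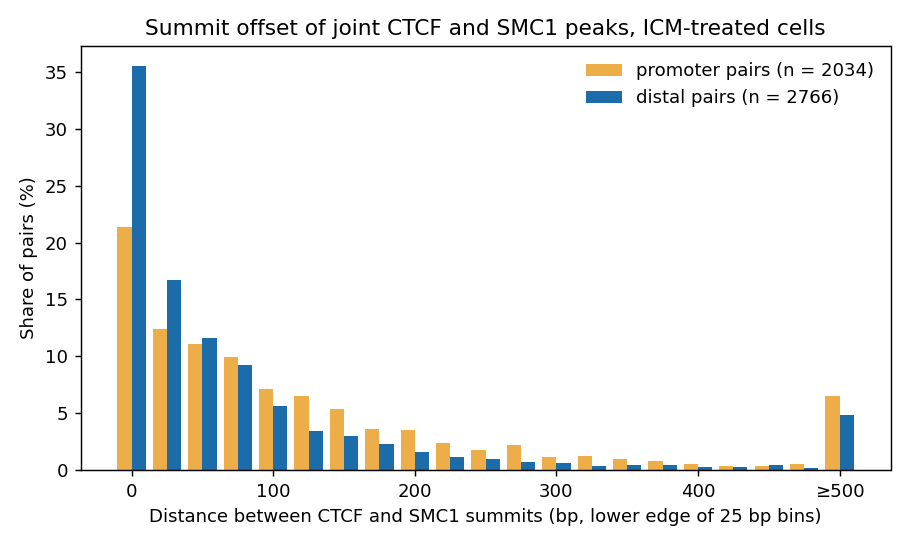
Distance between the CTCF and SMC1 summits of joint pairs in ICM-treated cells (bp, bins of 25 bp, the last bin holding 500 bp and more) against the share of pairs (%), for promoter and distal pairs. In the first bin lie 35.5% of distal and 21.4% of promoter pairs.

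Joint peaks ranked higher in both lists than peaks of a single protein. By total signal, which is coverage summed over a peak, joint CTCF peaks had a median percentile of 56.3 (54.8 to 57.7) and CTCF-only peaks of 35.6 (34.1 to 37.5) in the CTCF list. Joint SMC1 peaks were at 70.1 (69.0 to 71.2) and SMC1-only peaks at 42.4 (41.7 to 43.3) in theirs. In the signal units of the authors these medians were 35105, 27610, 5191 and 3587. By highest signal the medians were 55.1 against 41.1 for CTCF and 58.9 against 47.6 for SMC1, so the differences of 20.7 and 27.7 points became 14 and 11.2 points. With summit windows the CTCF difference was 8.34 points. Pairs shared little of their order, as total signal of the 2 proteins had a Spearman rank correlation of 0.264 across 4883 pairs, which share the cell type and base composition and are not replicates.

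The joint share rose with CTCF total signal from 57.8% (54.0 to 61.6) in the lowest decile to 93.6% (91.5 to 95.3) in the highest, and for SMC1 from 14.9% to 69.0%. Ordered by highest signal, CTCF peaks showed another shape. The joint share was 75.3% (71.9 to 78.5) in the lowest decile, 59.8% (56.0 to 63.6) in decile 4 and 92.6% (90.3 to 94.4) in the highest. The peaks of the lowest decile were low and broad, with a median width of 2437 bp against 1814 bp in decile 4, and 61.1% of them were promoter peaks against 34.7%. Within each class the share was also lower between the ends, with overlapping intervals at the low end. At promoters the joint share was 80.4% in the lowest quintile of highest CTCF signal, 74% and 73.4% in quintiles 2 and 3 and 87.4% in the top quintile. At distal peaks it was 60.1% in the lowest quintile, 54.8% in quintile 2 and 87.6% in the top quintile, so the strongest CTCF peaks were joint about equally often at both. Width moved in the same direction, the joint share running from 64.3% of the narrowest to 81.4% of the broadest decile of CTCF peaks, and from 12.1% to 57.5% for SMC1. The part of width in the overlap was not tested.

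**Figure D2:**
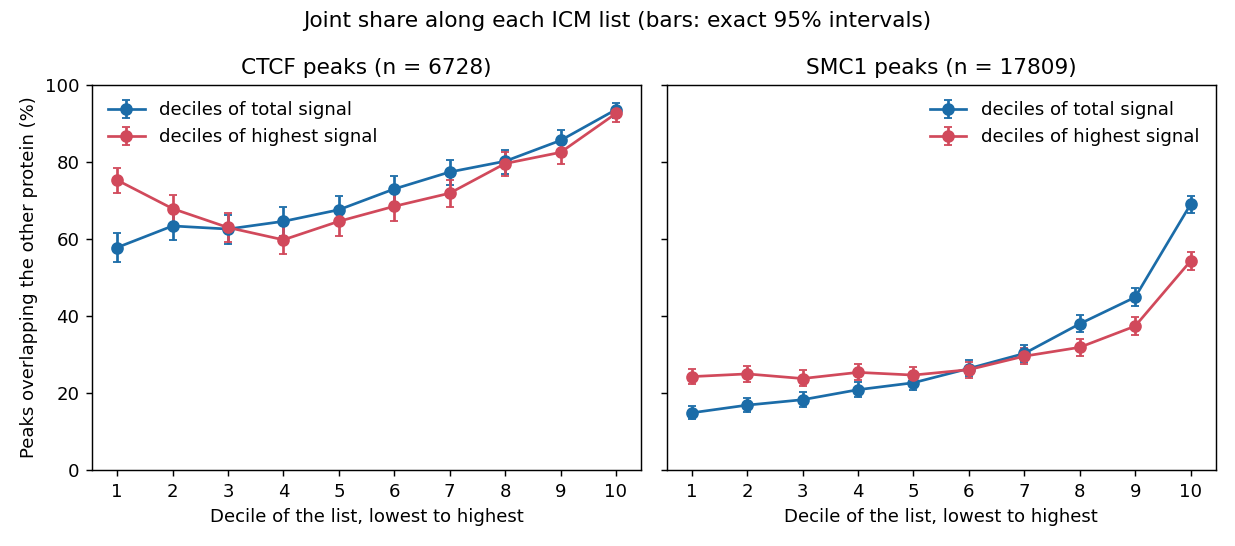
Share of CTCF peaks (left) and SMC1 peaks (right) that overlap the other protein (%), by decile of total signal and of highest signal, with exact 95% intervals as bars. By total signal the CTCF share is lowest in decile 1 (57.8%) and highest in decile 10 (93.6%), and by highest signal it is lowest in decile 4 (59.8%).

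Joint peaks were more often at promoters. Of joint CTCF peaks 42.3% (40.9 to 43.7) and of CTCF-only peaks 28.9% (26.8 to 31.0) were promoter peaks, a difference of 13.4 points (10.9 to 15.9). For SMC1 the shares were 42.3% (41.0 to 43.6) and 29.3% (28.5 to 30.1), a difference of 13.0 points (11.5 to 14.6). Counted the other way, 79.5% of 2599 promoter and 68.2% of 4129 distal CTCF peaks were joint, as were 38.5% of promoter and 26.1% of distal SMC1 peaks. The CTCF difference turned over with summit windows, under which it was -5.76 points (-8.08 to -3.43), and the SMC1 difference was then 2.89 points. Of promoter pairs 55.0% had summits within 100 bp of each other, and of distal pairs 73.4%.

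The CTCF core consensus was found most often under CTCF-only promoter peaks. It occurred in 35.2% (29.7 to 41.1) of the 281 promoter windows that held a CTCF-only summit and in 20.8% (18.6 to 23.3) of the 1190 with a joint CTCF summit. Of the 2946 windows with an SMC1-only summit 4.21% held it, and of all 34961 windows 4.94%. Exact matches gave the same order, at 9.25%, 4.2% and 0.17% of windows against 0.472% of all. The shares rose with the highest CTCF signal in both classes, from 6.06% to 39.4% for joint and from 21.5% to 62.2% for CTCF-only summits between the lowest and the top quintile. The CTCF-only share was above the joint share in each of the 5 quintiles, and the intervals did not overlap in the lowest (12.3 to 33.5 against 3.84 to 9.03) and in the top quintile (46.5 to 76.2 against 33.7 to 45.4). A match describes letters in a window and is not a measured site. The methods of the study describe a filter of CTCF peaks for a motif, but the deposited CTCF list holds more peaks than remained after it.

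**Figure D3:**
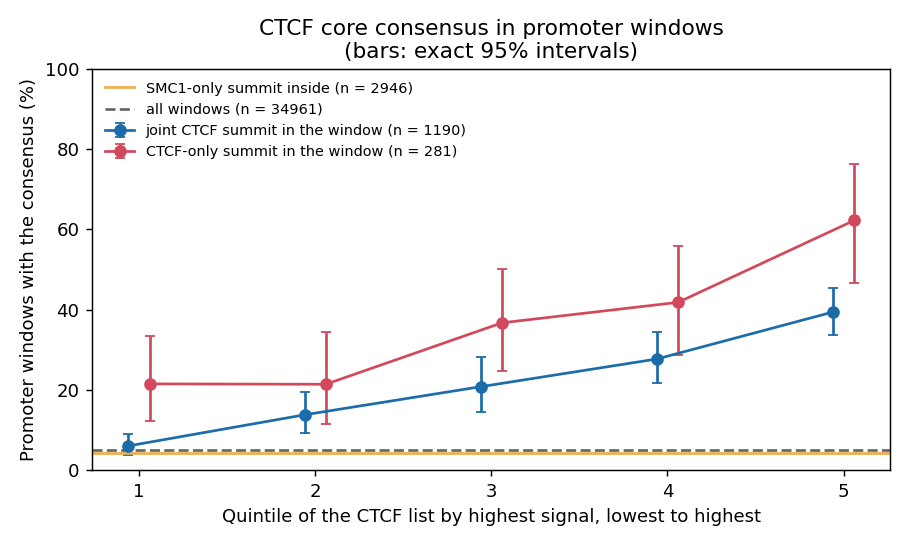
Share of promoter windows with the CTCF core consensus (%), by quintile of highest CTCF signal, for windows with a joint or a CTCF-only summit and exact 95% intervals as bars, beside the levels of windows with an SMC1-only summit and of all windows. The top quintile reaches 62.2% for CTCF-only and 39.4% for joint summits.

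Distances were taken in the 163 joint promoter pairs with 1 match in the window and both summits inside it, a restriction chosen after the data were seen, because a window picked for its CTCF summit alone holds CTCF near the match by selection. The CTCF summit lay a median of 49.5 bp (43 to 60) from the middle of the match and the SMC1 summit 66 bp (50.5 to 78). The CTCF summit was the nearer in 88 of the 152 pairs where the distances differed (57.9%, 49.6 to 65.8), an interval that includes 50%. CTCF summits lay on the 3′ side of the consensus, as read on its own strand, in 105 of 163 pairs (64.4%, 56.6 to 71.7), with a signed median of 35 bp (23.5 to 43). For SMC1 it was 95 of 163 (58.3%, 50.3 to 65.9), with a signed median of 24.5 bp (0.5 to 41.5).

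Pairs were ordered by the sum of their percentiles of total and highest signal in both lists. The highest joint promoter pair was that of WDR38 at chr9:124851676-124854497 for CTCF and chr9:124852544-124854032 for SMC1, with summits 9 bp apart. Its CTCF total was 214760 (99.6th percentile) and its SMC1 total 27607 (99.9th). WDR38 encodes a WD-repeat protein. EPHB3, an ephrin receptor, had the next pair, at chr3:184560650-184562496 and chr3:184560489-184562439, with totals of 162940 and 30561 and an offset of 52.5 bp. The non-coding RNA LINC03060 (chr7:134432032-134433577) and RHOF, a small GTPase (chr12:121793321-121797825, over SETD1B), followed with offsets of 179 and 0 bp. Among distal pairs the highest lay over RN7SL2, a signal recognition particle RNA with many near-identical copies (chr14:49861162-49863815, CTCF total 299506, SMC1 total 34275, offset 0 bp). The next was 15240 bp from the 5′ end of CTR9 (chr11:10735305-10736654), with the SMC1 total of 43273 and an offset of 77 bp. FGD2 held an internal pair (chr6:37017504-37019948, offset 12 bp). The pair over LOC102724701 (chr21:6368625-6375562) had the highest totals of both lists, 579890 and 188945, but summits 2408 bp apart. Whether reads are placed with certainty at this pair was not examined. All 8 pairs were also in the control and p34 lists of both proteins.

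CTCF-only peaks reached high ranks too. At promoters the highest were at MTF1, the metal-responsive transcription factor (chr1:37858606-37861047, total 147170, 98.3rd percentile), MAPK8IP3, a kinase scaffold (chr16:1704461-1706846, 141878), MZT2A (chr2:131491218-131493641, 156500) and FOXD2, a forkhead factor (chr1:47436064-47438452, 136778). Distal ones lay over SLC25A29 (chr14:100284905-100286450, total 107608), VPS51 (chr11:65109056-65113633, 148956), SYMPK (chr19:45815640-45818855, 90426) and SNX22 (chr15:64151928-64154915, 83816). All 8 were in both other CTCF lists. None of them had an SMC1 peak in the ICM list, but 7 overlapped one in the control SMC1 list, the exception being the VPS51 peak, which overlapped one in the p34 list. These 8 were picked for their rank. Of all 1845 CTCF-only peaks, 24.3% overlapped a control SMC1 peak. MZT2A has close copies elsewhere in the genome, so its reads may be placed uncertainly.

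SMC1-only promoter peaks of the highest rank were at RAB30, a Rab GTPase (chr11:83071349-83072341, total 16370, 98.9th percentile), the non-coding LOC107985502 (chr21:42040004-42041152, 15716) and LINC02136 (chr16:71426203-71427154, 15164), and ICE1, a component of the little elongation complex (chr5:5422029-5422733, 15380). The summits lay 10, 114, 264 and 118 bp from the 5′ ends. Distal ones were over DRC4 (chr16:90031383-90033033, total 46669), KIF5C (chr2:148881726-148881852, 21697), SUSD1 (chr9:112041342-112042243, 23846) and BNC2, a zinc-finger gene (chr9:16704506-16705645, 20777). The KIF5C peak was 127 bp wide with a highest signal of 287, against 79 at DRC4, and it alone of the 8 overlapped a CTCF peak of another condition, in the p34 list. All 8 were in both other SMC1 lists.

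Ranks of a joint pair could be far apart. Among pairs matched 1 to 1, CTCF ranked above SMC1 by total signal most at the promoters of THEM6 (96.1st against 1.27th percentile), TRAF6, an adaptor of NF-κB signalling (97.0 against 6.59), and MIDN (94.0 against 3.89). SMC1 ranked above CTCF most at the promoter of KCTD9 (97.3 against 0.617), inside RBKS (96.5 against 0.0966) and at the promoter of SRGAP2C (98.6 against 2.24), which has near-identical paralogs. The first 3 were in both other CTCF lists and the last 3 in neither, while all 6 were in the control SMC1 list. The pairs were picked by rank, and recurrence differed with rank. Of joint CTCF peaks, 99.6% in the top and 21.3% in the lowest quintile of total signal were in the control CTCF list. In the p34 CTCF list these shares were 98.7% and 54.7%. The largest offsets, 5652, 4678 and 3411 bp, were in broad CTCF peaks over TUBB (8049 bp wide, the SMC1 peak over FLOT1), CDK18 (7733 bp) and GYS1 (5761 bp). The 8 CTCF peaks that held 4 SMC1 peaks were likewise broad, from 5051 bp near IGFBP3 to 9805 bp at FIBP. At VEGFA, the angiogenic growth factor, the CTCF peak (chr6:43768530-43775888, total 227922) held SMC1 peaks with totals of 16612, 3732, 3821 and 7288, the first with its summit 3 bp from that of CTCF. The others lay at LOC105377730, TLN1, MUS81, BCL9L and over UQCC1.

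At the level of genes, 2124 of the 19629 protein-coding genes whose 5′ end was known (10.8%) had a joint promoter pair, 494 (2.52%) a CTCF-only and 3541 (18.0%) an SMC1-only promoter peak. A further 188 had only 1 summit of a joint pair within 1 kb, and 13274 had none of these. Long non-coding genes had fewer, with 528 joint (4.12%), 129 CTCF-only and 1012 SMC1-only of 12804. A peak between 2 neighbouring starts counts for both genes. The lists that follow are to be read beside these shares of all coding genes, and no list was tested. Percentiles of list genes are of total signal unless stated, CTCF before SMC1, and a broad peak could rank far lower by highest signal.

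Among 26 genes of the CTCF and cohesin machinery, 7 had a joint pair, 2 a CTCF-only and 6 an SMC1-only peak. STAG1, a cohesin subunit, had the highest pair by the same sum, at the 93.4th percentile of CTCF and the 98.8th of SMC1 total signal with an offset of 49.5 bp. The CTCF gene itself carried a pair at 95.8 and 91.1 with its summits 447 bp apart. The cohesin regulators PDS5B (58.4 and 89.0) and PDS5A (96.5 and 24.9), the acetyltransferase ESCO1 (92.2 and 41.1), the bromodomain protein BRD2 (89.8 and 93.1) and the core subunit SMC3 (9.63 and 56.7) also had pairs. By highest CTCF signal BRD2 and SMC3 were at the percentiles 12.3 and 14.6, and the other pairs at 83.1 or above. NIPBL, the cohesin loader, had a CTCF-only peak at the 57.2th percentile, as had PATZ1 at the 21.8th. SMC1A, the gene of the profiled subunit, had an SMC1-only peak at 53.8. Of 14 HMG genes, whose products include the proteins bound by ICM, HMGB2 (2.78 and 88.9) and HMGN4 (28.3 and 93.7) had joint pairs, low in CTCF and high in SMC1. UBTF had a CTCF-only peak, and HMGB1 was among 4 genes with an SMC1-only peak, at the 96.6th percentile.

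Of 26 genes of growth arrest, 8 (30.8%) had a joint pair, 1 a CTCF-only and 8 an SMC1-only peak. Summed over the percentiles of total and highest signal of both proteins, the 4 highest pairs were at CDKN2B, the CDK inhibitor p15 (96.3 and 98.5), the DNA damage kinase ATM (83.8 and 98.3), CDKN2D, the CDK inhibitor p19 (75.6 and 43.0), and CDK6 (77.2 and 95.5). CDKN2A had an SMC1-only peak at the 66.6th percentile by total signal but the 6.66th by highest signal. Its summit lay 2.5 bp from an annotated 5′ end of the gene (peak chr9:21994323-21995746). Whether this is the start used for p16 was not examined. CDKN1A, which encodes p21, had 1 summit of a pair within 1 kb, and MDM2, a ubiquitin ligase, a CTCF-only peak (43.9). Of 40 genes of the cell cycle and replication, 6 had joint pairs, which were ORC6 (90.4 and 99.8), PCNA (69.0 and 99.4), TOP2A, TK1, ORC1 and CDC45, with no CTCF-only and 11 SMC1-only peaks. Of 26 genes of lamins and heterochromatin, 7 had joint pairs, and these were TRIM28 (35.9 and 95.1), the HP1 genes CBX5, CBX3 and CBX1, EMD, BANF1 and DNMT3A. LMNB1 had 1 summit of a pair within 1 kb.

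The secretory phenotype comprises the cytokines and proteases that senescent cells release. Of its 42 genes 2 (4.76%) had joint pairs, VEGFA (99.7 and 99.0) and IL6 (70.1 and 93.9, offset 590 bp), while IGFBP4 had a CTCF-only peak and 8 genes an SMC1-only peak. By highest CTCF signal VEGFA was at the percentile 96.6 and IL6 at 10.4. Of 20 AP-1 and immediate early genes, 7 (35.0%) had joint pairs. EGR1 had the highest CTCF total among them (328898, 99.9th percentile) with an SMC1 peak at 97.6, and JUN the highest SMC1 rank (64.9 and 99.9). FOSL2 (64.6 and 98.3), IER2, IER3, MYC and EGR2 made up the rest, and none had a CTCF-only peak. By highest CTCF signal only EGR1 ranked high, at the percentile 99.1. The others were at 22.1 (JUN), 19.3 (FOSL2), 16.8 (IER3), 8.63 (IER2), 6.96 (EGR2) and 4.09 (MYC). Of 44 extracellular matrix genes, CCN2 (91.2 and 99.6), CCN1 (88.4 and 90.4) and COL1A2 (46.2 and 18.9) had joint pairs, LOX and EFEMP2 CTCF-only peaks and 11 an SMC1-only peak.

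The clustered protocadherins, adhesion genes whose alternative promoters are bound by CTCF in neurons, had no SMC1-only peak. Of 53 genes, 6 had a CTCF-only peak (11.3%) and 1 a joint pair. All 6 were in the gamma cluster on chromosome 5 (PCDHGB3, PCDHGA7, PCDHGB4, PCDHGA10, PCDHGB7 and PCDHGA11), with totals between 20832 and 28222 and percentiles between 3.81 and 37.7, and the joint pair was at PCDHGC3. Of 39 HOX genes, which set positional identity, HOXA5 had a joint pair (82.6 and 44.1) and HOXB5 and HOXA3 CTCF-only peaks. Of 12 coding imprinted genes only MEST had a peak of any class, a joint pair (29.2 and 31.4). The 84 ribosomal protein genes and like-named paralogs had 14 joint pairs (16.7%), 4 CTCF-only peaks and 32 SMC1-only peaks (38.1%). The 4 highest by the summed percentiles of total and highest signal of both proteins were RPL10A (88.2 and 78.8), RPL26 (97.4 and 78.0), RPL7 (83.0 and 99.6) and RPL39L (84.1 and 61.6). RPLP0, RPL32, RPL38 and RPL10 had the CTCF-only peaks. Ribosomal genes have many processed copies, so counts at them may be uncertain.

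Markers of the cell type were looked at as occupancy, not expression. Of 14 fibroblast markers, PDGFRA (99.6 and 85.6), VIM (88.4 and 98.2), COL1A2 and PDGFRB (32.6 and 36.6) had joint pairs and FN1 and TCF21 SMC1-only peaks. By highest CTCF signal these pairs were at the percentiles 98.5, 15.7, 18 and 2.5. No epithelial marker of 8 and no endothelial marker of 5 had a promoter peak, whereas CD14 of 6 immune and CNN1 of 4 smooth muscle markers had an SMC1-only peak.

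**Figure D4:**
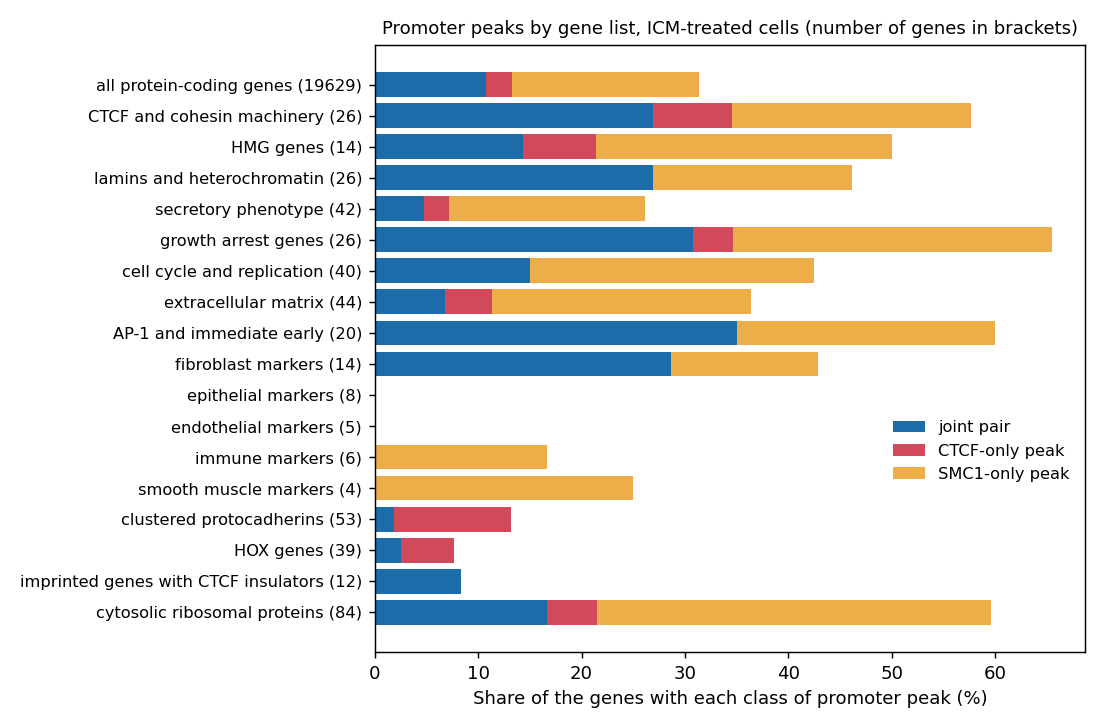
Share of the genes in each list with a joint pair, a CTCF-only or an SMC1-only peak at the promoter (%, stacked), beside all protein-coding genes, with the number of coding genes in brackets. Joint pairs reach 35.0% of AP-1 and immediate early genes against 10.8% of all coding genes, and protocadherins carry mainly CTCF-only peaks.

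Few peaks of a single protein had a summit of the other protein within 5 kb. A CTCF-only summit was a median of 31664 bp (28576 to 34281) from the nearest SMC1 summit, and 10.5% lay within 5 kb. An SMC1-only summit was 88042 bp (84945 to 91502) from the nearest CTCF summit, and 4.90% lay within 5 kb. Within 2 kb but without overlap were 25 CTCF-only and 95 SMC1-only peaks. The distances were not set against random placement. They also depend on the number of peaks of the other protein, 17809 for SMC1 and 6728 for CTCF. By chromosome, the joint share of CTCF peaks was 50.5% on chromosome X (n = 93, 40 to 61.1) and ran over the autosomes from 60.4% on chromosome 18 (n = 53, 46.0 to 73.5) to 88.7% on chromosome 21 (n = 53, 77.0 to 95.7). That of SMC1 peaks ran from 12.5% on chromosome 18 to 43.7% on chromosome 19.

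CTCF peaks without SMC1 recurred in the CTCF lists of other conditions. In all, 69.6% of joint and 53.7% of CTCF-only peaks overlapped a control CTCF peak, and 81.3% and 81.0% a p34 CTCF peak. Within quintiles of total signal the control shares were 21.3% (18.6 to 24.3) and 18.5% (15.3 to 22.1) in the lowest and 94.7% and 94.4% in quintile 4, and the intervals of both classes overlapped in each quintile. In the p34 list CTCF-only peaks were found more often than joint ones in the lowest quintile, at 67.2% (63.0 to 71.2) against 54.7% (51.2 to 58.1), and in quintile 2, at 80.4% (76.6 to 83.8) against 67.3% (64.0 to 70.4). For SMC1 the joint peaks were found more often in each quintile and both lists. In the lowest quintile these shares were 46.9% (42.7 to 51.1) for joint and 32.7% (31.0 to 34.4) for SMC1-only peaks in control, and 46.2% (42.0 to 50.4) and 23.8% (22.3 to 25.3) in p34.

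**Figure D5:**
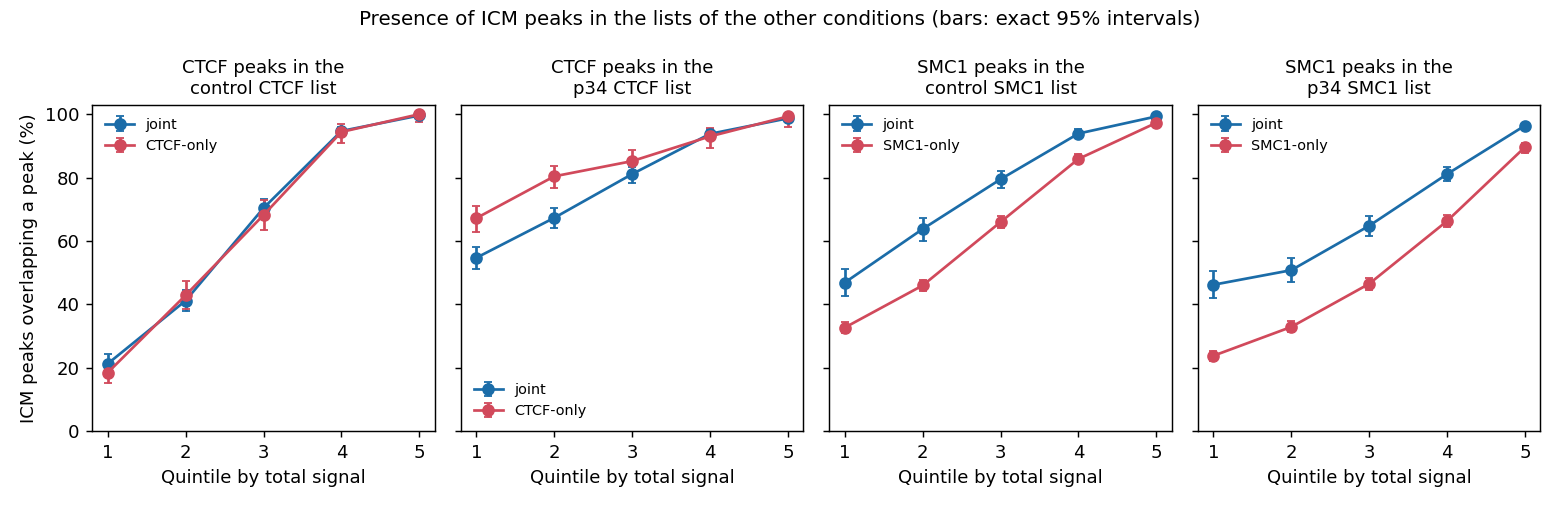
Share of ICM peaks that overlap a peak of the same protein in the control or p34 list (%), by quintile of total signal in the ICM list, with exact 95% intervals as bars. Joint SMC1 peaks lie above SMC1-only peaks throughout, while CTCF-only peaks lie above joint ones in the lower quintiles of the p34 list.

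Overlap with the other protein in the other conditions differed with the class of a peak. Of CTCF-only peaks 24.3% (22.4 to 26.4) overlapped an SMC1 peak in the control list, 23.5% one in the p34 list and 10.6% one in both, against 86.6%, 79.2% and 73.2% of joint CTCF peaks. Such overlap does not show that a class was kept, because the peak's own protein must be listed there too. Both proteins were listed at 62.8% of joint CTCF peaks in control and at 64.8% in p34. CTCF-only peaks were in the CTCF list of control in 53.7% and of p34 in 81.0%. SMC1-only peaks were in the SMC1 lists in 61% and 47%. Of SMC1-only peaks 1.21% (1.02 to 1.42) overlapped a CTCF peak in control and 7.79% (7.33 to 8.28) in p34, where the CTCF list is the longest with 8577 peaks. Joint CTCF peaks absent from all 4 other lists numbered 46 (0.942%), against 181 CTCF-only (9.81%) and 3397 SMC1-only peaks (27.3%). Joint peaks lie on sites of both proteins and can meet the lists of either, so these shares are not a like comparison. In the control or p34 list of the same protein, 86.7% of joint CTCF and 85.8% of CTCF-only peaks recurred. For SMC1 this held for 91.3% of joint and 70.5% of SMC1-only peaks.

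Matched in the same way, 75.8% (74.5 to 77.0) of 4673 CTCF peaks were joint in control, 72.6% in ICM-treated and 50.2% (49.1 to 51.3) of 8577 in p34 cells. The share of SMC1 peaks was 25.2%, 30.2% and 33.9%. Only in control did the 2 lists differ in p number, 21 for CTCF and 16 for SMC1. The control CTCF library also differs in it from both ICM libraries (16), which cannot be told apart from treatment. The ICM share minus the control share was -3.22 points (-4.84 to -1.59), and minus the p34 share 22.4 points (20.9 to 23.9). In lists cut to 4673 peaks each, the first difference changed sign, to 1.50 points (-0.492 to 3.49), and the second was 7.04 points (5.08 to 9). CTCF peaks were narrowest in p34 cells (median 1120 bp, against 1960 bp after ICM and 1797 bp in control), and the part of list length and width in these shares was not tested further. The median offset was 59 bp (56 to 63), 64 bp and 53.5 bp (51 to 55.5). Joint CTCF peaks had the higher promoter share in each condition, at 44.9% against 23.3% in control and 33.3% against 16.4% in p34. For SMC1 the promoter share of joint peaks exceeded that of SMC1-only peaks by 13.0 points in ICM-treated cells, but the shares were 45.6% and 43.1% in control and 33.8% and 37% in p34.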

How the data were processed

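CUT&Tag was carried out on IMR90 with antibodies against CTCF and SMC1, 1 library per antibody and condition. The methods describe alignment to hg38 with Bowtie 2 and calibration by E. coli reads, and the submitters' processing notes name Bowtie2 2.3.4.1, Picard 2.20.7, deepTools and SEACR 1.3. The authors deposited stringent SEACR lists of the top 1% of regions, called per library. Each deposited line gives an interval, its total signal (summed coverage), its highest signal and the region holding it. Signal values were ranked only within a list, because no common scale was established, and the E. coli scaling is not visible in them. The 1 peak on mitochondrial DNA per list was left out. The notes name GRCh38. The study also describes a motif filter. The deposited CTCF lists hold more peaks than remained after it, so they were not reduced to the filtered set.

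Peaks were matched in Python with numpy, pandas and scipy. Shares carry exact Clopper-Pearson intervals, medians order-statistic intervals and differences of shares Newcombe intervals. The 5′ ends came from 34961 RefSeq windows of 27195 genes (GRCh38.p14) and, for 5238 genes without a window, from RefSeq gene ends with the strand taken by symbol from GENCODE, covering 98.3% of protein-coding genes. Nearest summits paired the joint peaks. Named peaks were the 4 highest promoter and 4 highest distal peaks per class by summed percentiles of total and highest signal, the extremes of rank difference and offset, and the list genes with joint or CTCF-only promoter peaks (the 4 highest where more than 8). Peaks over copies of mitochondrial DNA were not named, and 1 gene of the arrest list is not reported here. SMC1-only and single-summit genes, and the genes outside the 4 highest, were named after their values were seen. Members, lists and rules were chosen with earlier results of these data known. With 1 library per group there was no test. Matching and offsets were checked on simulated peaks, and the intervals of shares on simulated counts. The intervals of medians and of differences were not checked in this way. Alternatives to the matching, list length, joining, rank measure, promoter distance and gene set were computed.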

Additional observations from a re-analysis of the deposited data

Results flagged for a closer look

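The mitochondrial genome, which was outside all comparisons, took 20.6% of the listed signal in the SMC1 list of ICM-treated cells against 12.4% in the control SMC1 list. It was flagged because signal outside the main measurement exceeded the control level. The p34 SMC1 list had the highest share, 31.4%. For CTCF the shares were 14.4% in ICM-treated, 27.7% in control and 18% in p34 cells. Each share rests on 1 library and its origin was not tested.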

How the results depend on the processing

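Of 72 recomputed values, 35 stayed within the interval of the reported value, 35 moved beyond it in the same direction and 2 changed sign. Requiring summit windows of 100 bp to overlap gave joint shares of 46.6% for CTCF and 17.6% for SMC1, rank differences of 8.34 and 24.4 points, promoter differences of -5.76 and 2.89 points and 11.8 points for ICM minus p34. Keeping the upper 50% of each list by total signal gave 65.0%, 26.3%, an offset of 70 bp, promoter differences of 9.74 and 8.20 points and 20.6 points for ICM minus p34. Keeping the upper 50% by highest signal gave 55.9%, 22.1%, 47.5 bp, a CTCF rank difference of 15.1 points, promoter differences of 4.68 and 6.90 points and 13.8 points for ICM minus p34. The SMC1 list cut to the CTCF length gave 44.8%, 46.5%, 68 bp, rank differences of 24 and 23 points and a CTCF promoter difference of 17.6 points. All 6 lists cut to 4673 peaks gave 1.50 points for ICM minus control and 7.04 points for ICM minus p34. Joining peaks gave an SMC1 share of 29.4% and an SMC1 rank difference of 30.5 points. Ranking by highest signal gave rank differences of 14 and 11.2 points, and by mean signal 11.6 and 11.8 points. Promoter distances of 500 bp, 2 kb and 5 kb gave SMC1 promoter differences of 10.1, 15 and 17 points. Apart from what fewer peaks or a stricter overlap imply, the cause was not tested. Requiring 50% of the narrower peak, protein-coding genes only, or leaving out copies of mitochondrial DNA (3 CTCF and 4 SMC1 peaks) moved no value beyond its interval. No paired analysis was possible because each group had 1 library, and leaving out a replicate was likewise impossible. The depth behind each list is unknown, so a missing overlap may be a peak below the threshold of its list.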
